A study of Mus musculus with 6 samples.

Results

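The subunit genes of the nuclear RNA polymerases I, II and III were described in 4T1 cells, a triple-negative line from a mouse mammary carcinoma, after treatment with LP-184, a DNA-damaging chemotherapeutic compound. The genes were taken by name: every row of the deposited expression table whose symbol begins with Polr, a digit for polymerase I, II or III, and a subunit letter. This gave 32 of 12656 genes. Of these, 31 encode subunits or, in the case of Polr2m, a polymerase II-associated protein, and the remaining match, Polr1has, is an antisense neighbour of Polr1h that was kept out of the counts. Polyadenylated RNA of cultured 4T1 cells was sequenced in 6 libraries, 3 of the DMSO group and 3 of the group exposed to LP-184 for 48 h. The dose, the passage, the duration of the DMSO culture and whether replicates came from separate cultures are not stated. The p-values therefore reflect only how these libraries vary, and that variation may be technical.

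Nuclear transcription in animals is divided between these enzymes. Polymerase I makes the precursor of the large ribosomal RNAs, polymerase II makes messenger RNA and most small nuclear RNAs, and polymerase III makes transfer RNA and other short RNAs. Each enzyme is built around a largest and a second-largest subunit that form the active site, an assembly dimer that nucleates the core, and a stalk that binds the emerging RNA. A set of small subunits is common to all of them, and polymerases I and III also share their assembly dimer. When polymerase II stalls at DNA damage, its largest subunit can be ubiquitylated and degraded.

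The reads behind the deposited values numbered 18864368 to 22471753 per library over the genes of the table, and a subunit gene had between 33 reads (Polr3gl) and 14825 reads (Polr2a) in a library. Values are CPM, the reads of a gene scaled to the library size behind the deposited values, or log2 CPM as deposited. That size was 0.984 to 0.994 of the reads over the genes of the table in DMSO libraries. In LP-184 libraries it was 1.007 to 1.016 of them. CPM is a share, so it shows neither the number of cells nor the amount of RNA per cell. A rise or fall is relative to the other genes of a library. All 6 epithelial markers examined were expressed, with a summed level of 2692 to 2714 CPM in DMSO and 2475 to 2491 CPM in LP-184 libraries. Krt8 and Krt18 were lower in every LP-184 library than in any DMSO library. Krt19, Epcam, Cdh1 and Krt14 were higher in every LP-184 library. Of 5 leukocyte markers 1 was among the genes analysed here, Lyz2, at 1.28 to 1.96 CPM with DMSO and listed at 0 with LP-184. None of 3 endothelial markers and 1 of 3 fibroblast markers (Pdgfra, 6.37 to 7.62 CPM with DMSO and 8.12 to 10.3 CPM with LP-184) was among them. The oestrogen receptor gene Esr1 was at 9.44 to 11.7 CPM with DMSO and 0.262 to 0.575 CPM with LP-184. The part of these markers in the results was not tested.

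Most subunit genes were moderately higher with LP-184, and a single one, Polr2a, stood far above the others. Of 31 genes, all of which passed the filter on low values, 21 rose, 4 fell and 6 missed the threshold (limma, Benjamini-Hochberg adjusted p under 0.05 over 11931 genes). Across all genes tested, 78.3% were called, 38.3% as higher and 40% as lower. The subunits' share called in either direction, 80.6%, was near that background, while the share called higher was 67.7%. Their median log2 fold change was 0.25, against -0.01 over all genes tested. The log2 fold changes ran from -0.71 (Polr3g) to 1.67 (Polr2a), with standard errors of 0.02 to 0.24. Only Polr2a rose by 2-fold or more, as did 8.08% of all genes tested, and 0 fell by that much, as did 12.6% of all genes tested. For 26 of the 31 genes no DMSO library reached into the range of the LP-184 libraries, which was so for 79.1% of all genes.

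These counts changed when a trend of fold change with gene length over all genes was removed. Fold changes in these cells fell with the span of the gene (Spearman's rho -0.50 across 11466 genes, which are not independent replicates), and the polymerase genes are short, with a median span of 11.8 kb against 21.8 kb for all genes tested. The trend over all genes at the spans of the 31 subunit genes had a median of 0.30, above their own median of 0.25. Taken gene by gene, the fold changes of the 31 genes with the trend removed had a median of 0.076, against -0.028 over all genes with a span. With this trend removed, 12 subunit genes were higher, 11 lower and 8 did not pass, where 35.3% of all genes were then higher and 38.9% lower. Among the subunits themselves fold change did not follow span (Spearman's rho 0.11, n = 31 genes, given as a description).

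**Figure D1:**
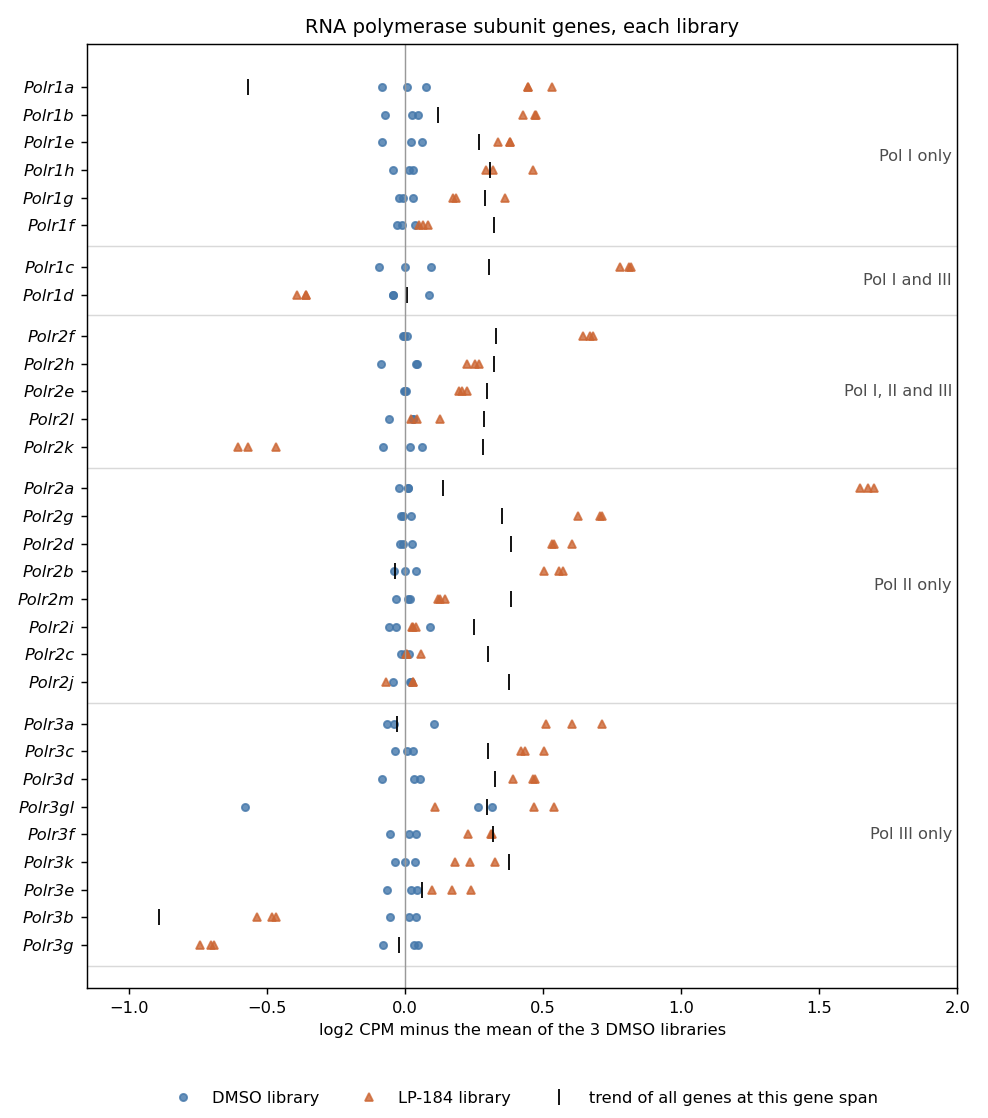
Each row is 1 subunit gene, and each point is 1 library, as log2 CPM minus the mean of the 3 DMSO libraries (circles DMSO, triangles LP-184); the black bar marks the trend of all genes at the span of that gene. Polr2a lies farthest right, at a log2 fold change of 1.67, and Polr3g, Polr2k, Polr3b and Polr1d are the 4 genes called lower.

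Polr2a encodes the largest subunit of polymerase II, which carries part of the active site and the long repetitive C-terminal domain that is phosphorylated during transcription. It was at 200, 205 and 205 CPM in DMSO replicates 1 to 3 and at 649, 636 and 659 CPM in LP-184 replicates 1 to 3. All 3 LP-184 libraries lay well above all 3 DMSO libraries. The rise was 3.19-fold (log2 1.67 ± 0.02, SE, n = 3 each, with a limma adjusted p = 9.1e-35), and it ranked 282 from the top among the 11931 genes tested. Polr2a covers 24.6 kb of chromosome 11 (69733997 to 69758637 in GRCm38, reverse strand), where the trend over all genes was 0.14, and it was still higher with that trend removed (1.53 ± 0.02).

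The other catalytic subunits changed less, and not all in the same direction. Polr2b, the second-largest subunit of polymerase II, rose 1.46-fold, from 173, 178 and 168 CPM to 245, 254 and 257 CPM. For polymerase I the largest subunit Polr1a rose 1.39-fold, from 59.6, 62.5 and 55.9 CPM to 85.7, 80.8 and 80.7 CPM, and the second-largest, Polr1b, rose 1.37-fold, from 55.0, 55.9 and 51.5 CPM to 75.0, 72.8 and 75.2 CPM. Groups did not overlap for any of these genes. Polr1a covers 75.9 kb, a span at which the trend over all genes was -0.57, so its log2 fold change of 0.47 ± 0.05 became 1.04 ± 0.04 with the trend removed.

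The catalytic pair of polymerase III moved in opposite directions. Polr3a, its largest subunit, rose 1.53-fold, from 19.5, 17.7 and 17.3 CPM to 29.8, 25.9 and 27.7 CPM (log2 fold change 0.61 ± 0.08, SE, limma adjusted p = 1.8e-08). Polr3b, the second-largest, fell by 0.49 ± 0.05 on the log2 scale, from 66.0, 61.8 and 64.7 CPM to 44.2, 46.0 and 46.4 CPM (limma adjusted p = 3.9e-11). In every LP-184 library Polr3a was above and Polr3b below its whole DMSO range. Polr3b is the longest of the 31 genes, at 105 kb (chromosome 10, 84622292 to 84727178, forward strand). Genes of that span fell by 0.89 on the trend, and with the trend removed Polr3b was higher instead, by 0.40 ± 0.04.

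Partner subunits, and the paralogs Polr3g and Polr3gl, were also compared as ratios within each library. Scaling a whole library by a single factor does not move these ratios. The log2 ratio of Polr2a to Polr2b went from 0.24 ± 0.05 with DMSO to 1.36 ± 0.04 with LP-184 (SD, n = 3 each), and that of Polr3a to Polr3b from -1.82 ± 0.07 to -0.71 ± 0.13. In contrast, the ratio of Polr1a to Polr1b was 0.13 ± 0.02 with DMSO and 0.15 ± 0.05 with LP-184, and these groups overlapped. All these ratios include the length trend. With it removed, the log2 fold changes were 1.04 for Polr1a and 0.34 for Polr1b, so this pair then differed. They were 0.64 for Polr3a and 0.40 for Polr3b, both higher, and 1.53 for Polr2a and 0.58 for Polr2b. Of the 7 pairs compared, 5 had groups that did not overlap. For single genes this was so in 79.1% of all genes tested, and the share for ratios of other gene pairs was not computed. An exact two-sided permutation test gave each of these 5 pairs p = 0.1 (Benjamini-Hochberg adjusted over 7 pairs 0.14). This is the smallest p that this test allows with 3 against 3 libraries. No single ratio could therefore pass a threshold of 0.05 by it, and the test decides nothing here.

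**Figure D2:**
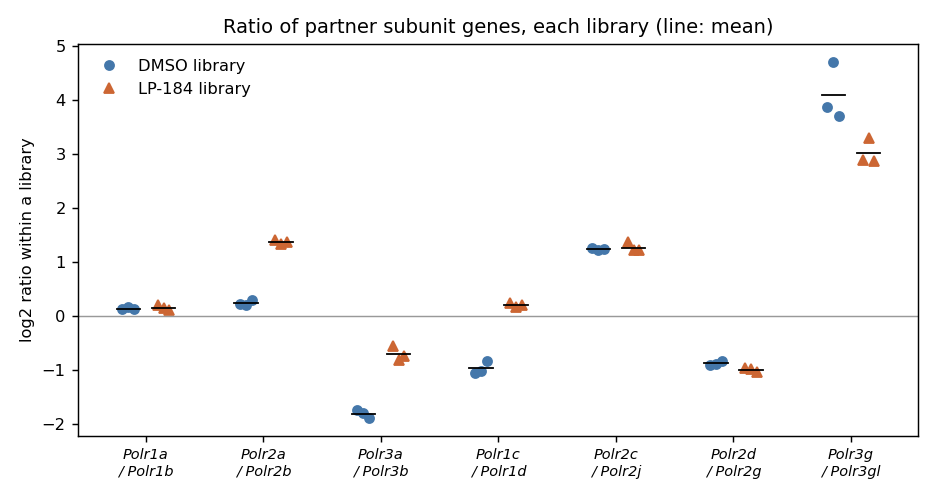
Log2 ratio of CPM between 2 subunit genes within each library, for 7 pairs (circles DMSO, triangles LP-184, line the mean of 3 libraries). The length trend is not removed. The groups are apart for Polr2a to Polr2b, Polr3a to Polr3b, Polr1c to Polr1d, Polr3g to Polr3gl and, by a small step of -0.12, Polr2d to Polr2g, and they overlap for Polr1a to Polr1b and Polr2c to Polr2j.

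The assembly dimer that polymerases I and III share also moved in opposite directions. Polr1c rose 1.74-fold, from 124, 116 and 133 CPM to 218, 214 and 219 CPM (log2 fold change 0.80 ± 0.04, SE, limma adjusted p = 9.7e-21), the largest rise among these genes after Polr2a. Its partner Polr1d fell by 0.37 ± 0.03 on the log2 scale, from 260, 237 and 237 CPM to 186, 190 and 191 CPM (limma adjusted p = 6.8e-13). Within a library Polr1d was above Polr1c in all 3 DMSO libraries and below it in all 3 LP-184 libraries, with a log2 ratio of Polr1c to Polr1d of -0.97 ± 0.12 and 0.20 ± 0.03 (SD, n = 3 each). Both calls kept their direction with the length trend removed, at 0.50 and -0.38. Polr1c covers 4.13 kb of chromosome 17 (46243920 to 46248054) and Polr1d 34.5 kb of chromosome 5 (147077050 to 147111597).

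The equivalent dimer of polymerase II did not pass the test. Polr2c was at 175 to 179 CPM with DMSO and 177 to 184 CPM with LP-184, a log2 difference of 0.02 ± 0.03 (SE, limma adjusted p = 0.48), and Polr2j at 72.8 to 76.1 CPM and 71.5 to 76.6 CPM (-0.0031 ± 0.043, limma adjusted p = 0.95). The groups overlapped for each. Polr2c passed with median centring (0.11), Polr2j changed sign there (0.08), and both were lower with the length trend removed (-0.28 and -0.38). Part of the annotated exons of these genes lies opposite a neighbour on the other strand, 18.1% for Polr2c (Dok4) and 15.9% for Polr2j (Lrwd1). Some called genes had smaller overlaps of this kind, among them 9.44% for Polr2f, 5.43% for Polr2h, 4.69% for Polr3b and 4.25% for Polr1g. The strand setting of the counting is not stated.

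Of the 5 subunits common to all 3 polymerases, 3 were higher, 1 was lower and 1 did not pass. Over all genes tested, 38.3% were higher and 40% lower. Polr2f, which helps hold the clamp of the enzyme, rose 1.59-fold, from 198, 200 and 199 CPM to 311, 319 and 316 CPM. Polr2h and Polr2e rose 1.19-fold and 1.16-fold, and with the length trend removed these 2 were at -0.08 and -0.09, the value of Polr2e then passing as lower. Polr2k, a very small zinc-binding subunit, fell by 0.55 ± 0.06 on the log2 scale (SE, limma adjusted p = 5.6e-10), from 46.7, 42.4 and 45.4 CPM to 29.4, 32.4 and 30.2 CPM. The trend at its span of 3.00 kb was 0.28, so it lay farther below genes of like length (-0.83). The GRCm38 annotation lists a processed pseudogene of it, Polr2k-ps on chromosome 11, and how reads that match both were counted is not stated. Polr2l, another small zinc-binding subunit, was at 62.2 to 66.1 CPM with DMSO and 65.8 to 70.8 CPM with LP-184, with overlapping groups (0.06 ± 0.05, limma adjusted p = 0.2). It passed as higher with median centring (0.15) and as lower with the length trend removed (-0.22).

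The stalk genes of polymerase II rose together. Polr2g rose 1.60-fold, from 147, 144 and 143 CPM to 223, 237 and 236 CPM, and Polr2d, its partner in the stalk, 1.47-fold, from 78.0, 77.4 and 79.7 CPM to 113, 119 and 114 CPM. Both remained higher with the length trend removed (0.33 and 0.18). Polr2i, a zinc-ribbon subunit that takes part in RNA cleavage and proofreading, was at 18.7 ± 1.04 CPM with DMSO and 19.1 ± 0.0974 CPM with LP-184 (SD, n = 3 each), with overlapping groups (log2 difference 0.03 ± 0.08, limma adjusted p = 0.73), and 26.8% of its annotated exon bases overlap Tbcb on the other strand. With the length trend removed Polr2i passed as lower (-0.22, limma adjusted p = 0.028). Polr2m, which binds polymerase II and competes with a general transcription factor, rose 1.09-fold, from 313 to 325 CPM to 348 to 354 CPM, and was lower with the length trend removed (-0.25). In all, 5 of the 8 genes particular to polymerase II rose and 0 fell (median log2 fold change 0.34). The share called in either direction, 62.5%, was below the 78.3% of all genes tested, of which 38.3% were higher and 40% lower.

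Among the 6 genes particular to polymerase I, 5 were higher and 0 lower, with a median of 0.36. Over all genes tested, 38.3% were higher and 40% lower. Polr1e and Polr1g, a dimer that resembles the elongation factor TFIIF, rose 1.29-fold and 1.18-fold. Polr1h, the zinc-ribbon subunit that supports RNA cleavage, rose 1.28-fold, from 20.6, 21.5 and 21.7 CPM to 26.5, 26.1 and 29.3 CPM. None of these 3 passed with the length trend removed. The stalk gene Polr1f was at 96.2, 97.5 and 101 CPM and at 102, 104 and 103 CPM, and although the groups did not overlap, its log2 fold change of 0.07 ± 0.04 (SE) did not pass (limma adjusted p = 0.099). It passed as higher with median centring (0.15) and as lower with the length trend removed (-0.26). The antisense gene Polr1has fell by 0.62 ± 0.20 on the log2 scale (limma adjusted p = 0.0047), from 3.97, 4.24 and 4.33 CPM to 2.98, 2.30 and 2.83 CPM. In the GRCm38 annotation it begins 33 bases beyond the start of Polr1h, on the other strand.

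Polymerase III has an additional trimer that contacts its initiation factor and opens the promoter, and 1 position of this trimer can be filled by either of 2 paralogs, Polr3g, typical of proliferating, stem and tumour cells, and Polr3gl, expressed more widely. Polr3g fell by 0.71 ± 0.06 on the log2 scale, the largest fall among the 31 genes, from 43.1, 42.6 and 39.4 CPM to 24.9, 25.6 and 25.8 CPM (limma adjusted p = 2.4e-12). Its span of 37.2 kb carried a trend of -0.02, and it was still lower with the trend removed (-0.69). Polr3gl was at 2.84, 1.54 and 2.94 CPM with DMSO and 3.29, 2.54 and 3.46 CPM with LP-184, with 141 and 194 reads summed over the 3 libraries of each group. Its groups overlapped (log2 difference 0.37 ± 0.24, SE, limma adjusted p = 0.15), and it passed with quantile normalization (0.59). Without DMSO replicate 2, the lowest library, the difference was 0.082 (limma adjusted p = 0.76). The log2 ratio of Polr3g to Polr3gl was 4.09 ± 0.54 with DMSO and 3.01 ± 0.24 with LP-184 (SD, n = 3 each), so Polr3g remained the more abundant paralog in all 6 libraries, on a scale of reads per gene. Per kb of exon the means were 10.6 and 1.53 CPM with DMSO and 6.46 and 1.94 CPM with LP-184. The other members of the trimer, Polr3c and Polr3f, rose 1.37-fold and 1.22-fold. With the length trend removed Polr3c was still higher (0.15) and Polr3f did not pass (-0.032).

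Of the 10 genes particular to polymerase III, 7 were higher, 2 lower and 1 did not pass, with a median of 0.27. Over all genes tested, 38.3% were higher and 40% lower. Polr3d and Polr3e, the TFIIF-like dimer of polymerase III, rose 1.36-fold and 1.12-fold, and neither passed with the length trend removed (0.12 and 0.11). The call of Polr3e (0.17 ± 0.06, limma adjusted p = 0.018) was lost when DMSO replicate 3 was left out (limma adjusted p = 0.082) and when LP-184 replicate 1 was (limma adjusted p = 0.092). The zinc-ribbon subunit Polr3k rose 1.19-fold, from 90.3, 92.5 and 94.8 CPM to 109, 116 and 105 CPM. With the length trend removed Polr3k was lower (-0.13). No test of a difference between the 3 polymerases was made, and the medians of the genes particular to each, 0.36, 0.34 and 0.27 for polymerases I, II and III, are given as a description. With the length trend removed these medians were 0.075, -0.020 and 0.11, in another order and with that of polymerase II below 0.

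**Figure D3:**
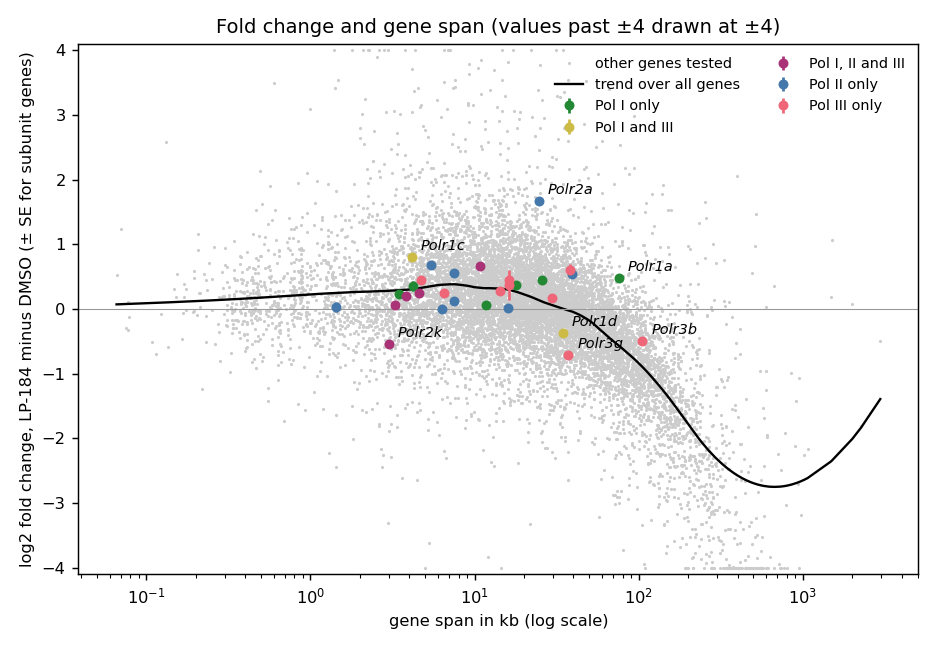
Log2 fold change (LP-184 minus DMSO, ± SE for subunit genes) against gene span in kb on a log axis, with other genes tested in grey, the subunit genes coloured by the polymerase they belong to and the trend over all genes as a line. Polr2a and Polr1a lie well above the line, at 1.67 and 0.47 where the line is at 0.14 and -0.57, and Polr2k and Polr3g lie below it.

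Levels of different subunits were compared per kb of annotated exon. With DMSO the genes particular to polymerase II ran from 15.4 CPM per kb (Polr2i) to 132 CPM per kb (Polr2m), and the shared subunits from 39.3 (Polr2l) to 113 (Polr2e). Those particular to polymerase I ran from 5.00 (Polr1a) to 25.9 (Polr1h), and those particular to polymerase III from 1.53 (Polr3gl) to 29.6 (Polr3k). The largest subunits of the 3 enzymes were at 28.8 ± 0.374 (Polr2a), 5.00 ± 0.278 (Polr1a) and 3.12 ± 0.203 (Polr3a) CPM per kb (SD, n = 3). With LP-184 they were at 91.8 ± 1.63, 6.94 ± 0.243 and 4.77 ± 0.337 CPM per kb, in the same order. Among the genes particular to polymerase II, Polr2a was the next to lowest per kb with DMSO, above Polr2i alone, and with LP-184 only Polr2g, Polr2m and Polr2d were above it. Exon length is the union of all annotated exons, which can exceed that of the transcripts made in these cells.

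**Figure D4:**
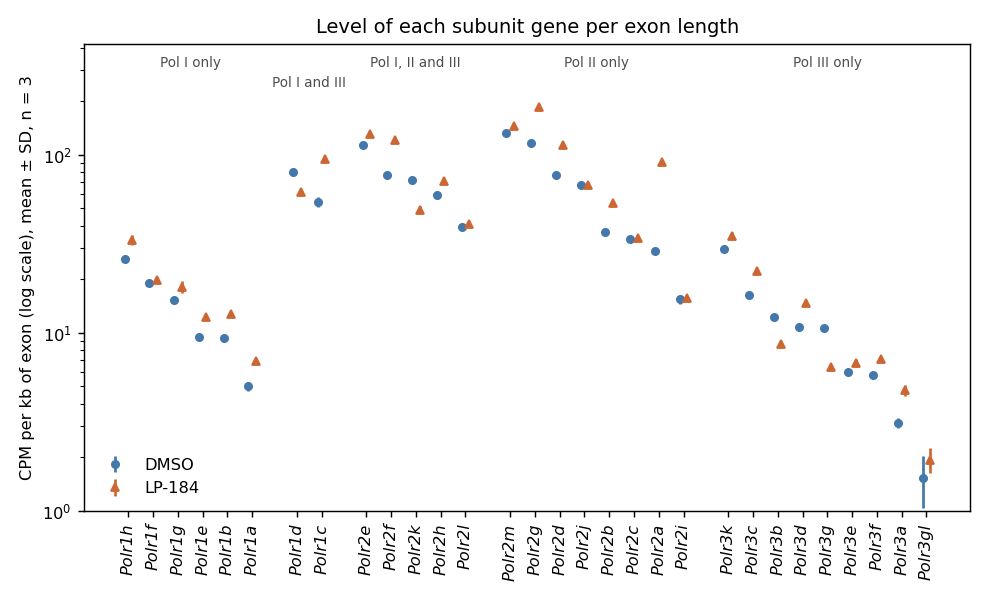
Level of each subunit gene in CPM per kb of exon on a log axis, as mean ± SD of 3 libraries (circles DMSO, triangles LP-184), grouped by polymerase and ordered by the DMSO level. Polr2a moves from 28.8 to 91.8 CPM per kb, while genes particular to polymerase I or III reach at most 35.2 CPM per kb (Polr3k with LP-184).

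Promoter sequences of RefSeq (GRCm38.p6) were found for 25 of the 31 genes, as windows of 250 bases before to 50 after the annotated start. The upstream 250 bases are shown, on the strand of the gene, for the 2 genes of this set with the largest rises and the 2 with the largest falls that have an entry, since these were the members that moved apart. Capitals mark matches to the motifs listed after the sequences, on either strand.
Polr2a, chr11:69758634-69758883, reverse strand: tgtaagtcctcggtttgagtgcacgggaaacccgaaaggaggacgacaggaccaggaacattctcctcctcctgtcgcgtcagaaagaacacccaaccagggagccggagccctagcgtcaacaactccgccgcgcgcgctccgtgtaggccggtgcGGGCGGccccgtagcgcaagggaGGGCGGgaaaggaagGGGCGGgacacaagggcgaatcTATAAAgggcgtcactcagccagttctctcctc
Polr1c, chr17:46248046-46248295, reverse strand: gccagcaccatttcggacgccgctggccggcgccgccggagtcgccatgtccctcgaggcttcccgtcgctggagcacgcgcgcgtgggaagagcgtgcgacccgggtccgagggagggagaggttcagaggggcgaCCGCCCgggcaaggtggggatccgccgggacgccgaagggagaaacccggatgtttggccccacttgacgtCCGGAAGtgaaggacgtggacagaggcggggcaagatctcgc
Polr3g, chr13:81711014-81711263, reverse strand: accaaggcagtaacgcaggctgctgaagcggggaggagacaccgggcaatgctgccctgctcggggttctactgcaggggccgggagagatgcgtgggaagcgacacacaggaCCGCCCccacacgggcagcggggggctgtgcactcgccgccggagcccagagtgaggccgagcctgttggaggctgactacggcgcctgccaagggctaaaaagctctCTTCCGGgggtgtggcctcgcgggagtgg
Polr3b, chr10:84622048-84622297, forward strand: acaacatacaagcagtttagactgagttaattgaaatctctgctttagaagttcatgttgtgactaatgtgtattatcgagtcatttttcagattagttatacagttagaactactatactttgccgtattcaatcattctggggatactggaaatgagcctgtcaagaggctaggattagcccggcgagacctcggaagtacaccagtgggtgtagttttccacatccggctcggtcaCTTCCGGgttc

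The Polr2a window holds 3 GC boxes, which begin 93, 70 and 55 bases before the start, and a TATA box from 33 to 28 bases before it. Polr1c and Polr3g, which changed in opposite directions, each hold 1 GC box and 1 ETS motif, and Polr3b holds an ETS motif. Over the full windows the TATA box (TATAAA) was found in 2 of 25 subunit genes, Polr2a and Polr2c, and in 8.3% of the 8854 tested genes with an entry. The GC box (GGGCGG) was found in 14 of 25 subunit genes and 71.2% of tested genes, the ETS motif (CCGGAAG) in 8 of 25 and 21.7%, the CCAAT box (CCAAT) in 8 of 25 and 43.7%, and the E-box (CACGTG) in 5 of 25 and 12.1%. The YY1 motif (AAGATGGC) matched in 0 of the 25, against 5.65% of tested genes. Over all 27025 genes of the promoter table the shares were 15.7% for the TATA box, 38.2% for the GC box, 9.93% for the ETS motif, 41.1% for the CCAAT box, 8.09% for the E-box and 3.19% for YY1. All motifs were searched on both strands. A match is a run of letters and not a bound site.

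Other genes of the same machinery moved in both directions, at shares called between 83.3% and 94.1% in the 5 lists with 8 or more genes, beside 78.3% of all genes. By direction, 38.3% of all genes tested were higher and 40% lower. The gene of the mitochondrial RNA polymerase, Polrmt, a single-subunit enzyme outside the nuclear family, rose 3.43-fold, from 18.1, 20.7 and 22.6 CPM to 74.8, 66.2 and 70.1 CPM (log2 fold change 1.78 ± 0.07, SE, limma adjusted p = 1.1e-22), a rise of the size of that of Polr2a. Crcp, another subunit of polymerase III, was at 61.7 to 66.0 CPM and 63.0 to 67.1 CPM (0.03 ± 0.05, limma adjusted p = 0.62). Among 8 initiation factor genes of polymerase I, 5 were higher and 2 lower (median 0.38). Within the promoter-binding complex SL1, Taf1c rose by 1.09 ± 0.09 on the log2 scale, from 10.2 to 10.8 CPM to 21.4 to 23.5 CPM, and Taf1b fell by 1.75 ± 0.09, from 29.4 to 32.4 CPM to 9.01 to 9.20 CPM. Of 17 initiation factor and repressor genes of polymerase III, 9 were higher and 7 lower (median 0.27), and the largest changes were those of Gtf3c4, a subunit of TFIIIC (1.13 ± 0.04), and Snapc4, of the complex that acts at small nuclear RNA genes (0.96 ± 0.10).

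Of 12 genes that build and import polymerases, 8 were higher and 2 lower, with a median of 0.34, where 38.3% of all genes were higher. The trend over all genes at the spans of the 11 with an annotated span had a median of 0.26. With the trend taken off, the median of these 11 was 0.27. Slc7a6os, the mammalian counterpart of a yeast factor for nuclear import of polymerase II, rose 2.96-fold, from 43.8 ± 1.77 to 130 ± 5.77 CPM (SD, n = 3 each), and Gpn2, a GTPase of polymerase assembly, 2.06-fold. Of 14 genes of polymerase II ubiquitylation and turnover, 5 were higher and 8 lower (median -0.15). Wwp2, a ubiquitin ligase that acts on the largest subunit, fell by 1.57 ± 0.06 on the log2 scale, from 65.3, 70.6 and 71.0 CPM to 21.8, 23.9 and 23.9 CPM, and the cullin gene Cul3 by 1.23 ± 0.04. Of 12 genes that bind the C-terminal domain of Polr2a or remove its phosphates, 3 were higher and 7 lower (median -0.17), with the largest falls in Ctdspl, a phosphatase gene (-1.55 ± 0.11), and Scaf8 (-1.14 ± 0.06), which binds that domain. Wwp2, Cul3, Ctdspl and Scaf8 are long, at 122, 75.6, 118 and 83.9 kb, where the trend over all genes was -1.07, -0.56, -1.02 and -0.66. The whole C-terminal domain list is of long genes, with a median span of 58.7 kb and a median trend of -0.33. With the trend taken off, its median was -0.35. For the 14 turnover genes the median trend was -0.04, and the median with it taken off 0.05.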

How the data were processed

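The authors deposited log2 CPM values by gene symbol for 12656 genes in 6 RNA sequencing libraries of 4T1 cells, 3 controls and 3 with LP-184. Control columns carry the numbers 1 to 3, and each was read as the DMSO library with that number. Per the submitters' processing notes the tools were fastp, STAR 2.7, featureCounts, Subread 2.0 and edgeR (Cell Ranger and Seurat are also named), with mm10 and hg38 as builds. Roles, annotation, gene filter and strand setting have no source here. The lowest log2 value is equal in all libraries, as left by a prior count proportional to library size. Subtracting it gave whole reads for 100% of values (tolerance 1e-06). A deposited comparison table of the authors holds log2 fold changes, a p-value and an adjusted p-value per gene, from an unstated test.

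For 11931 genes (log2 CPM at or above 0 in 3 or more libraries) limma 3.58.1 in R 4.3.3 compared LP-184 with DMSO, with trended empirical Bayes variances, two-sided, Benjamini-Hochberg adjusted over these genes, threshold 0.05. GENCODE M21 (GRCm38, the sequence behind mm10) gave spans and exon lengths by symbol for 95.9% of genes. Polr1f, Polr1g, Polr1h and Polr1has were found there as Twistnb, Cd3eap, Znrd1 and Znrd1as. To remove the length trend, a loess fit (smoothing 0.3) of fold change against log10 span was taken off the LP-184 values. The test was checked on simulated data. Summaries used Python 3.11.15, numpy 2.4.6, pandas 2.3.3 and scipy 1.17.1. Other scalings, filters, pseudocounts, fits and left-out libraries were tried.

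All subunit genes were named, except 1 that is included in the counts and medians but not reported or drawn here, and in each other list the 2 called genes of largest change. Crcp falls outside that rule and was added after its values were seen. Members and lists were chosen with earlier results of these data known.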

Additional observations from a re-analysis of the deposited data

How the results depend on the processing

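Over 18 alternatives the calls and directions of 14 of the 31 subunit genes did not change, and 17 changed at least once. Removal of the length trend changed the most: the subunit genes higher became 12 (from 21) and those lower 11 (from 4), over 11466 genes with a span. Under it Polr1g (-0.051), Polr1f (-0.26), Polr2e (-0.089), Polr2h (-0.075), Polr2l (-0.22), Polr2c (-0.28), Polr2i (-0.22), Polr2m (-0.25), Polr3f (-0.032) and Polr3k (-0.13) turned to lower values and Polr3b (0.40) to a higher one. Polr2j, near 0, changed sign with median centring (0.084), without DMSO replicate 2 (0.0067) or 3 (0.0079) and without LP-184 replicate 1 (0.030), within a range of -0.024 to 0.030 over the left-out libraries. The cause was not tested. Leaving out each library gave 20 to 21 subunit genes higher and 4 lower in each case, 4415 to 4493 of all genes higher and 4607 to 4655 lower. Median centring and quantile normalization moved the median of all genes by 0.09 and 0.08 and gave 24 and 22 subunit genes higher. The counts over all genes moved too, to 5195 and 5115 higher (from 4574) and 4222 and 4382 lower (from 4767). Same-numbered DMSO and LP-184 libraries did not deviate together (correlations -0.0105, -0.0177 and -0.0065 for numbers 1 to 3), and with the replicate number as a block 21 subunit genes were higher and 4 lower, with 4550 and 4741 of all genes. In the authors' deposited table all 31 fold changes had the same sign as here and the same 25 genes had an adjusted p under 0.05. Counting limits Polr3gl most, with 33 to 75 reads a library.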
